A study of Mus musculus with 18 samples.

Results

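The transcripts of 7 genes that restrain the ERK kinase pathway were followed in sorted endothelial cells (ECs) of the mammary gland, which form the inner wall of blood vessels. They were the MAP kinase phosphatase genes Dusp1, Dusp4, Dusp5 and Dusp6 and the Sprouty genes Spry1, Spry2 and Spry4, and they made up 7 of the 16248 genes in the expression table. The genes were chosen by their names as 1 family, and the family was selected on a result of these data, because Dusp4 was among the transcripts that were lower after cGAMP in ECs of MMTV-PyMT tumours. For that reason the effect of cGAMP in MMTV-PyMT ECs is given for all 7 genes as a description with no test. The same holds for Dusp4 in PBS comparisons that use MMTV-PyMT ECs, because those libraries served the choice.

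To ask how an agonist of STING, an adaptor protein of innate DNA sensing, acts on ECs of normal and tumour tissue, RNA of sorted ECs was sequenced 3 h after injection of PBS or of cGAMP, a cyclic dinucleotide that binds STING. There were 6 groups of 3 libraries. The source of normal ECs was the mammary fat pad (wild type, FVB), and that of implanted ECs was a breast tumour placed in wild type FVB mice, each after PBS or cGAMP. MMTV-PyMT ECs came from spontaneous breast tumours of FVB mice with the genotype MMTV-PyMT, after PBS or cGAMP. In MMTV-PyMT mice the mammary tumour virus promoter drives a viral oncogene in the mammary epithelium, not in the ECs. Cells cultured from tumours of these mice and put into the fat pad of female hosts gave the implanted tumours. All libraries share the FVB strain, the 3 h time point and the sort for live CD45-negative, CD31-positive cells after enrichment with CD31 beads. The labels give no age. Mice came from several independent experiments, and which library belongs to which experiment was not stated, so no value within an experiment can be given.

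Growth factor receptors on ECs, among them the receptors for VEGF and FGF, signal through RAS, RAF and MEK to the kinase ERK. Active ERK raises transcription of its own inhibitors, and this negative feedback limits the strength and the length of the signal. Dusp genes encode phosphatases that remove the activating phosphates from ERK and related kinases, whereas Sprouty proteins act upstream, between the receptors and RAS or RAF. In blood vessels both kinds of feedback are known to temper sprouting and growth.

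Whole reads recovered from the values amounted to between 9184658 and 12200551 per library, and each of the 7 transcripts was covered by 175 to 9372 reads in every library. All 7 passed the filter on low values, and 13983 genes were tested. The table lists no value of 0, so a listed gene has reads in every library. All 7 EC markers were listed, with summed levels of 611 to 1606 FPKM (fragments per kilobase of gene length, with a library scaling by the authors). Of other cell types, 6 of 8 leukocyte markers, 6 of 6 epithelial markers and 6 of 6 mural and fibroblast markers were listed, and the 3 adipocyte markers were not in the table. Leukocyte markers summed to 42.5 to 193 FPKM in implanted cGAMP ECs against 15.4 to 64.0 FPKM in the other groups, and the highest sum belonged to implanted cGAMP 2. Epithelial markers summed to 838 to 905 FPKM in MMTV-PyMT PBS ECs and to 313 to 395 FPKM in normal PBS ECs, so transcripts of other cells moved with the tissue. In such bulk samples fewer cells of a type and less RNA per cell cannot be told apart.

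Promoter sequences are shown for the 3 genes whose response to cGAMP differed between implanted and normal ECs (Dusp1, Dusp5 and Dusp6). They are the RefSeq windows from 250 bases before to 50 bases after the gene start, on build GRCm38.p6 of the reference strain and not of FVB mice. Such a window was at hand for 5 of the 7 genes and not for Dusp4 and Spry4. The windows were searched on both strands for 6 motifs. These were the cAMP response element (CRE, TGACGTCA), the AP-1 site (TGANTCA), the ETS site (CCGGAAG), an interferon element (GAAANNGAAA), the kappaB site and the CArG box of serum response factor. None of the words spelled out here contains another. Capitals mark the matches, and all sequences run 5′ to 3′ on the strand of the gene. The Dusp1 window lies at chr17:26508423-26508722 on the minus strand, the Dusp5 window at chr19:53528895-53529194 on the plus strand and the Dusp6 window at chr10:99262981-99263280 on the plus strand.
Dusp1: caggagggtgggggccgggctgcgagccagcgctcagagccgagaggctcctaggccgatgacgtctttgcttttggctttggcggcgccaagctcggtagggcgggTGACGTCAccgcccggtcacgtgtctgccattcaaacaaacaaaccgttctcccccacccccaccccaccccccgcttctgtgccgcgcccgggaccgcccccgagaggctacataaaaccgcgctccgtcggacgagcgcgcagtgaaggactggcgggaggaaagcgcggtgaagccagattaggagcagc
Dusp5: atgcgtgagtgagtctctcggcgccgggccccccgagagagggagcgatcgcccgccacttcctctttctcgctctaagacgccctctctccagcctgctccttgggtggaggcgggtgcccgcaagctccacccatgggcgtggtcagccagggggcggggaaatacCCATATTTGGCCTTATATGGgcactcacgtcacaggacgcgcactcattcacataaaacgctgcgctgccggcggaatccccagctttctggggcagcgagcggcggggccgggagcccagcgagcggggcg
Dusp6: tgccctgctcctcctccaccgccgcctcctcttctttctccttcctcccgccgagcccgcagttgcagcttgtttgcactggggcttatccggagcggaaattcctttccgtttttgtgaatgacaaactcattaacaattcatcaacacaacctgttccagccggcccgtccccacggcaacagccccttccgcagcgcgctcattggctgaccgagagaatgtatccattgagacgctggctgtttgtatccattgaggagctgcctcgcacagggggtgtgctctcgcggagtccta
The Dusp1 promoter held 1 CRE, which began 143 bases before the start. This 8-base word occurred in 1.8% of 32544 mouse promoters of the same length. The Dusp5 promoter held 2 CArG boxes next to each other, which began 82 and 72 bases before the start, and 1.64% of promoters held at least 1 such box. The windows of Dusp6, Spry1 and Spry2 held none of the 6 motifs. For the other motifs the share of promoters with a match was 7.79% for AP-1, 8.91% for ETS, 3.45% for the interferon element and 8.49% for kappaB. A match describes the letters in the window and no binding was measured.

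After cGAMP the 7 genes did not move as 1 block. In normal ECs Dusp1 and Spry1 fell and Spry4 rose, and in implanted ECs Dusp5, Dusp6 and Dusp1 rose and Spry1 fell. The sizes ranged from 1.35-fold for Dusp1 in implanted ECs to 2.07-fold for Dusp5 in implanted ECs on the tested scale. Differences are given as log2(FPKM + 1) of cGAMP minus PBS with the standard error, and a gene passed when the p-value of limma, adjusted over all tested genes by the method of Benjamini and Hochberg, was under 0.05. In normal ECs 1 of 7 genes passed as higher and 2 as lower, where 13.7% of all tested genes passed as higher and 18.2% as lower. In implanted ECs 3 of 7 passed as higher and 1 as lower, against 20.3% and 18.8% of all tested genes. The median difference of the 7 genes was -0.10 in normal and 0.35 in implanted ECs, beside -0.04 and -0.01 over all tested genes. Under scaling to total recovered reads the implanted median of the 7 genes was 0.04. In MMTV-PyMT ECs, the contrast behind the choice, 7.42% of tested genes passed as higher and 4.57% as lower, and the values of the 7 genes there are descriptions only.

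**Figure D1:**
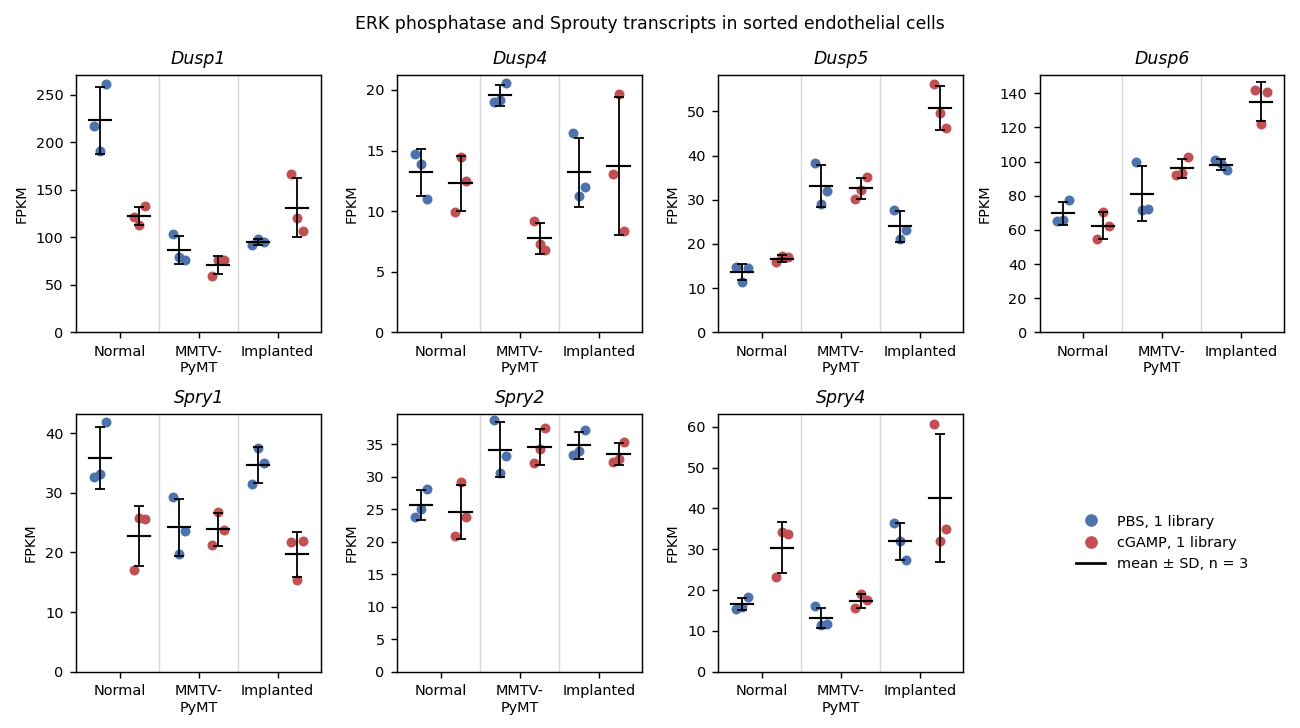
Transcript levels of the 7 genes in FPKM (vertical axes, linear from 0) by tissue, with 1 point per library, blue for PBS and red for cGAMP, and the mean ± SD of 3 libraries in black. Dusp1 was highest in normal PBS ECs (223 ± 35.5 FPKM), Dusp5 and Dusp6 were highest in implanted cGAMP ECs (50.7 ± 4.98 and 135 ± 11.4 FPKM), and Dusp4 was lowest in MMTV-PyMT cGAMP ECs (7.77 ± 1.29 FPKM).

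The response to cGAMP differed between implanted and normal ECs for Dusp1, Dusp5 and Dusp6. In the test of the difference between the 2 effects, these 3 of 7 genes passed, each with an effect that was higher in implanted than in normal ECs. Of all tested genes 12.5% passed in that direction and 6.09% in the other. The median of this difference over the 7 genes was 0.09, beside 0.04 over all tested genes. These calls depend on how libraries are scaled. The size factors in the deposited values were 0.735 to 0.830 of the recovered reads in implanted cGAMP libraries and 0.964 to 1.15 in the other groups. Scaling to total reads instead moved the median effect of cGAMP over all genes by -0.23 in implanted ECs and by -0.01 in normal ECs. With that scaling 1 of the 7 genes passed as higher and 2 as lower in implanted ECs, and the difference between implanted and normal ECs passed as higher for 1 gene and as lower for 1, with a median of -0.19 over the 7 genes. The shares of all tested genes under total-read scaling are not given here, so these counts stand without them.

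**Figure D2:**
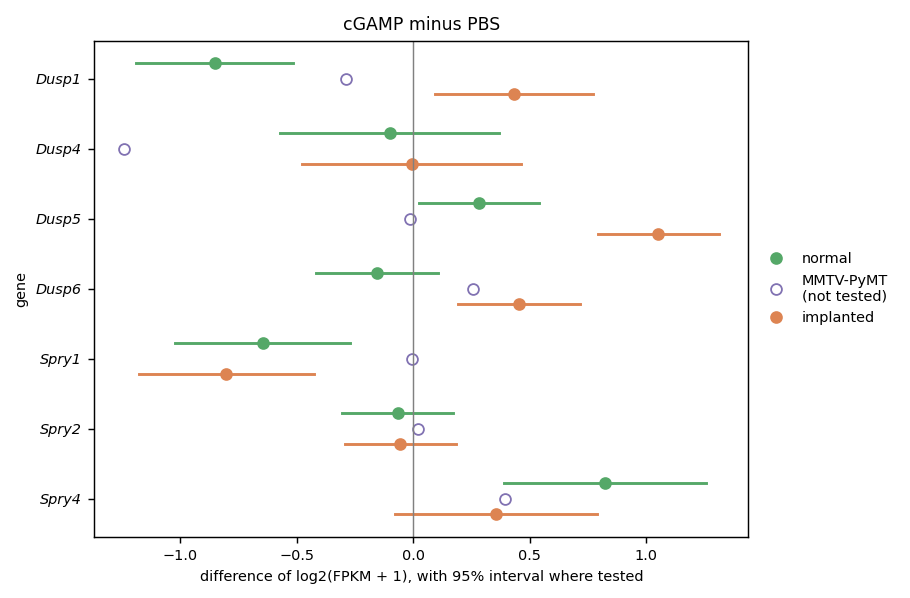
Difference between cGAMP and PBS on the log2(FPKM + 1) scale (horizontal axis) for each gene (vertical axis) in normal (green), MMTV-PyMT (hollow) and implanted ECs (orange), with lines for the 95% interval from limma where a test was made. Dusp1 lies at -0.85 in normal and 0.43 in implanted ECs, Dusp5 at 1.05 in implanted ECs, and the hollow point of Dusp4 at -1.24.

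Dusp1 (ENSMUSG00000024190.7, mm10 chr17:26505590-26562128, minus strand) encodes a nuclear phosphatase, also called MKP-1, that acts on p38 and JNK as well as on ERK and is itself an early response gene. In normal ECs its levels were 217, 191 and 261 FPKM after PBS and 121, 113 and 133 FPKM after cGAMP. All cGAMP libraries lay below all PBS libraries. The fall was 0.85 ± 0.16 on the log2 scale (adjusted p = 0.00083). In implanted ECs the levels were 92.3, 98.2 and 95.5 FPKM after PBS and 166, 121 and 107 FPKM after cGAMP. In FPKM all cGAMP libraries lay above the PBS libraries, implanted cGAMP 1 by the widest margin. The rise was 0.43 ± 0.16 (adjusted p = 0.041), and without implanted cGAMP 1 it was 0.25 (adjusted p = 0.22). With total-read scaling the rise was 0.12 (adjusted p = 0.50). The effect in implanted ECs exceeded that in normal ECs by 1.28 ± 0.22 (adjusted p = 0.00095), and that difference passed under every alternative tried, with adjusted p between 0.0005 and 0.0036. In MMTV-PyMT ECs the levels were 104, 79.7 and 76.7 FPKM after PBS and 59.6, 76.0 and 76.3 FPKM after cGAMP, a difference of -0.29 that was not tested. There the cGAMP libraries lay below the PBS libraries by a narrow gap.

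Dusp1 is also induced when tissue is dissociated, so transcripts known for that response are set beside it. Of 12 stress and dissociation genes tested, 8 fell after cGAMP in normal ECs, led by Btg2 (-1.15) and Hspa1a (-0.87). Their summed level was 2750 to 3581 FPKM in normal PBS and 1971 to 2332 FPKM in normal cGAMP ECs, so this list moved in the direction of Dusp1. In implanted ECs the sum was 1306 to 1570 FPKM after PBS and 1452 to 1514 FPKM after cGAMP. There 1 gene of the list rose (Atf3, 1.57) and 3 fell, led by Btg2 (-0.71) and Nr4a1 (-0.39), and with total-read scaling 1 rose and 6 fell. Of all tested genes, 13.7% passed as higher and 18.2% as lower in normal ECs. In implanted ECs 20.3% and 18.8% did, on the deposited scale only. In MMTV-PyMT ECs the sum was 2482 to 3121 FPKM after PBS and 2133 to 2432 FPKM after cGAMP. The part of dissociation in the levels of Dusp1 was not tested. The GENCODE span of Dusp1 reaches upstream of the RefSeq start and overlaps Ergic1 on the other strand, and whether reads were counted by strand was not stated, so reads of the pair may be mixed.

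Dusp4 (ENSMUSG00000031530.6, chr8:34807297-34819894, plus strand) encodes the inducible nuclear phosphatase MKP-2. Its values in MMTV-PyMT ECs chose the family. They were 19.0, 19.2 and 20.6 FPKM after PBS and 9.23, 7.30 and 6.78 FPKM after cGAMP, with a mean 2.52-fold lower and no overlap. In normal ECs the levels were 14.7, 13.9 and 11 FPKM after PBS and 9.97, 14.4 and 12.5 FPKM after cGAMP. In implanted ECs they were 16.5, 11.2 and 12 FPKM after PBS and 13.1, 19.7 and 8.40 FPKM after cGAMP. The 2 treatments overlapped in both tissues, and implanted cGAMP ECs held both the highest and the lowest library of the 2 implanted groups. Neither difference passed, with -0.10 in normal ECs (95% interval -0.57 to 0.37) and -0.01 in implanted ECs (-0.48 to 0.46). The differences between tissues in the effect on Dusp4 were not tested where they involve MMTV-PyMT ECs. Epithelial markers in the MMTV-PyMT libraries summed to 838, 905 and 885 FPKM after PBS and to 819, 581 and 733 FPKM after cGAMP. These sums did not overlap either, and none of the 6 markers passed alone. The part of epithelial transcripts in the level of Dusp4 was not tested.

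Dusp5 (ENSMUSG00000034765.6, chr19:53529109-53542431, plus strand) encodes a nuclear phosphatase specific for ERK. In implanted ECs it was at 27.8, 21.1 and 23.2 FPKM after PBS and at 56.1, 49.6 and 46.3 FPKM after cGAMP. In FPKM every cGAMP library stood above every PBS library and above the libraries of the other tissues. Per recovered read MMTV-PyMT PBS 1 (1257 of 12055770 reads) stood above implanted cGAMP 1 (1160 of 11374761 reads). The rise of 1.05 ± 0.12 had the smallest adjusted p of the 7 genes in that comparison (4.45e-06), and it passed under every alternative tried, with 0.74 under total-read scaling. In normal ECs the levels were 14.8, 11.5 and 14.6 FPKM after PBS and 15.8, 17.3 and 17.0 FPKM after cGAMP. These groups did not overlap either, but the difference of 0.28 ± 0.12 did not pass (adjusted p = 0.088, 95% interval 0.02 to 0.54). The effect in implanted ECs was larger than in normal ECs by 0.77 ± 0.17 (adjusted p = 0.0054), or by 0.46 under total-read scaling (adjusted p = 0.053). In MMTV-PyMT ECs Dusp5 stood at 38.3, 29.0 and 31.9 FPKM after PBS and at 30.3, 32.3 and 35.1 FPKM after cGAMP, with full overlap and a difference of -0.02 that was not tested. An antisense transcript overlaps Dusp5 and was not separated from it.

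Dusp6 (ENSMUSG00000019960.8, chr10:99263231-99267489, plus strand) encodes MKP-3, the cytoplasmic phosphatase specific for ERK and a common readout of ERK activity. Implanted ECs had 101, 99.2 and 94.8 FPKM after PBS and 142, 122 and 141 FPKM after cGAMP. In FPKM the cGAMP libraries lay above all others of the series. This order did not hold per recovered read. Implanted cGAMP 2 had 3213 of 10372795 reads and MMTV-PyMT PBS 1 had 4151 of 12055770. The rise was 0.45 ± 0.12 (adjusted p = 0.0083), and total-read scaling reduced it to 0.14 (adjusted p = 0.34). In normal ECs the levels were 65.4, 65.9 and 77.6 FPKM after PBS and 54.5, 70.5 and 62.5 FPKM after cGAMP. These overlapped, and the difference of -0.16 did not pass (95% interval -0.42 to 0.10). The implanted effect exceeded the normal one by 0.61 ± 0.17 (adjusted p = 0.022). That call was lost with total-read scaling (0.30, adjusted p = 0.20) and without normal PBS 3 (0.53, adjusted p = 0.066), normal cGAMP 1 (0.52, adjusted p = 0.055) or implanted PBS 3 (0.58, adjusted p = 0.051). MMTV-PyMT ECs had 99.8, 71.6 and 72.3 FPKM after PBS and 92.0, 93.5 and 103 FPKM after cGAMP, which overlapped through the first PBS library. Their difference was 0.25 and was not tested.

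Markers of other cells varied between libraries of the implanted cGAMP group, in which Dusp1, Dusp5 and Dusp6 rose in FPKM. Mural and fibroblast markers summed to 765, 748 and 344 FPKM in implanted cGAMP 1, 2 and 3. After PBS they summed to 383 to 393 FPKM, so implanted cGAMP 3 lay below the PBS libraries. Of these markers 2 of 6 passed as higher, and of the 6 leukocyte markers tested 1 did. Of all tested genes 20.3% passed as higher. The endothelial sum was 1606 FPKM in implanted cGAMP 1, against 972 and 1169 FPKM in implanted cGAMP 2 and 3. It was 935 to 1173 FPKM after PBS. The part of other cells in these results was not tested.

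Spry1 (ENSMUSG00000037211.12, chr3:37639947-37644598, plus strand), a Sprouty gene known to restrain receptor signalling in ECs, fell after cGAMP in normal and implanted ECs. Normal ECs had 32.6, 33.2 and 41.9 FPKM after PBS and 17.0, 25.8 and 25.6 FPKM after cGAMP. Implanted ECs had 31.5, 37.5 and 35.0 FPKM after PBS and 21.8, 15.3 and 21.9 FPKM after cGAMP. In neither tissue did the treatments overlap. The fall was 0.65 ± 0.18 on the log2 scale in normal ECs (adjusted p = 0.011) and 0.80 ± 0.18 in implanted ECs (adjusted p = 0.0019). The normal call was lost without normal PBS 3 (-0.53, adjusted p = 0.059) or without normal cGAMP 1 (-0.46, adjusted p = 0.060), and the implanted call held when any 1 library was left out and under total-read scaling. The effects in the 2 tissues differed by -0.16 (95% interval -0.68 to 0.37), which did not pass. MMTV-PyMT ECs had 29.3, 19.8 and 23.6 FPKM after PBS and 21.2, 26.7 and 23.8 FPKM after cGAMP. Those groups overlapped, with a difference of -0.01 that was not tested.

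Spry4 (ENSMUSG00000024427.7, chr18:38586247-38601415, minus strand), an ERK-induced Sprouty gene, took the opposite direction to Spry1 in normal ECs. Its levels there were 15.5, 15.8 and 18.2 FPKM after PBS and 23.1, 34.3 and 33.7 FPKM after cGAMP. All cGAMP libraries lay above the PBS libraries, and the rise was 0.82 ± 0.20 (adjusted p = 0.0062). In implanted ECs the levels were 36.5, 32.0 and 27.5 FPKM after PBS and 60.7, 32.1 and 35.1 FPKM after cGAMP. The groups overlapped, and only implanted cGAMP 1 stood clear of the PBS libraries. The difference of 0.35 ± 0.20 did not pass (adjusted p = 0.18, 95% interval -0.08 to 0.79) and was 0.08 without implanted cGAMP 1. The implanted effect was lower than the normal one by 0.47, which did not pass (-0.47 ± 0.29, 95% interval -1.08 to 0.14). It passed as lower without implanted cGAMP 1 (-0.75, adjusted p = 0.035) and under total-read scaling (-0.78, adjusted p = 0.040). In MMTV-PyMT ECs the levels were 16, 11.5 and 11.8 FPKM after PBS and 15.7, 19.1 and 17.4 FPKM after cGAMP, with a difference of 0.39 that was not tested.

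Spry2 (ENSMUSG00000022114.5, chr14:105891947-105896819, minus strand), a Sprouty gene with broad expression, stayed within a narrow band. Its levels were 23.7 to 28.2 FPKM after PBS and 20.96 to 29.1 FPKM after cGAMP in normal ECs, and 33.3 to 37.2 FPKM after PBS and 32.3 to 35.4 FPKM after cGAMP in implanted ECs. The treatments overlapped in each tissue. Neither difference passed, with -0.07 in normal ECs (95% interval -0.30 to 0.17) and -0.06 in implanted ECs (-0.29 to 0.18). Under total-read scaling Spry2 passed as lower in implanted ECs (-0.36, adjusted p = 0.013), where the median gene shifted by -0.23. In MMTV-PyMT ECs its levels were 30.5 to 38.8 FPKM after PBS and 32.1 to 37.5 FPKM after cGAMP, which overlapped.

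Under PBS alone tumour ECs had less Dusp1 and more Dusp5 and Spry2 than normal ECs, in both kinds of tumour. These comparisons share the PBS libraries, so their values stand side by side and are not independent. Dusp1 was lower by 1.21 ± 0.16 on the log2 scale in implanted ECs (-1.21, adjusted p = 1.32e-05) and by 1.35 ± 0.16 in MMTV-PyMT ECs (-1.35, adjusted p = 3.55e-06). Dusp5 was higher by 0.77 ± 0.12 in implanted ECs (adjusted p = 7.46e-05) and by 1.22 ± 0.12 in MMTV-PyMT ECs (adjusted p = 6.61e-07). All tumour libraries lay below the normal libraries for Dusp1 and above them for Dusp5. Spry2 was higher by 0.43 ± 0.11 in implanted (adjusted p = 0.0047) and by 0.40 ± 0.11 in MMTV-PyMT ECs (adjusted p = 0.0068), also without overlap, although the first call was lost with total-read scaling (0.25, adjusted p = 0.074). Lists of other transcripts moved with these comparisons as well. Of 12 stress and dissociation genes, 9 were lower and 2 higher in implanted than in normal ECs (median -1.08), and 5 were lower and 3 higher in MMTV-PyMT than in normal ECs (median -0.22). Of 6 mural and fibroblast markers, 4 were lower and 1 higher in each tumour, with sums of 811 to 921 FPKM in normal PBS, 383 to 393 FPKM in implanted PBS and 296 to 348 FPKM in MMTV-PyMT PBS ECs. Their part in the levels of the 7 genes was not tested.

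Other members were compared with normal ECs in the same way. Spry4 and Dusp6 were higher in implanted than in normal ECs, by 0.91 ± 0.20 (adjusted p = 0.0016) and 0.49 ± 0.12 (adjusted p = 0.0034). In MMTV-PyMT ECs Spry4 and Dusp6 did not pass against normal ECs, with -0.32 (95% interval -0.76 to 0.11) and 0.21 (-0.06 to 0.47). Spry1 was lower in MMTV-PyMT than in normal ECs by 0.56 ± 0.18 (-0.56, adjusted p = 0.013), whereas implanted ECs differed from normal ECs by -0.04 (95% interval -0.42 to 0.33). The Spry1 call was lost without normal PBS 3 (-0.44, adjusted p = 0.068) or MMTV-PyMT PBS 2 (-0.43, adjusted p = 0.074). Dusp4 differed by -0.01 between implanted and normal ECs (95% interval -0.48 to 0.46), and its MMTV-PyMT PBS libraries lay above all other PBS libraries, which was not tested. In all, 4 of 7 genes passed as higher and 1 as lower in implanted against normal ECs, where 25.0% and 23.6% of all tested genes did. In MMTV-PyMT against normal ECs 2 of 6 tested members passed as higher and 2 as lower, against 29.8% and 26.6% of all tested genes.

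**Figure D3:**
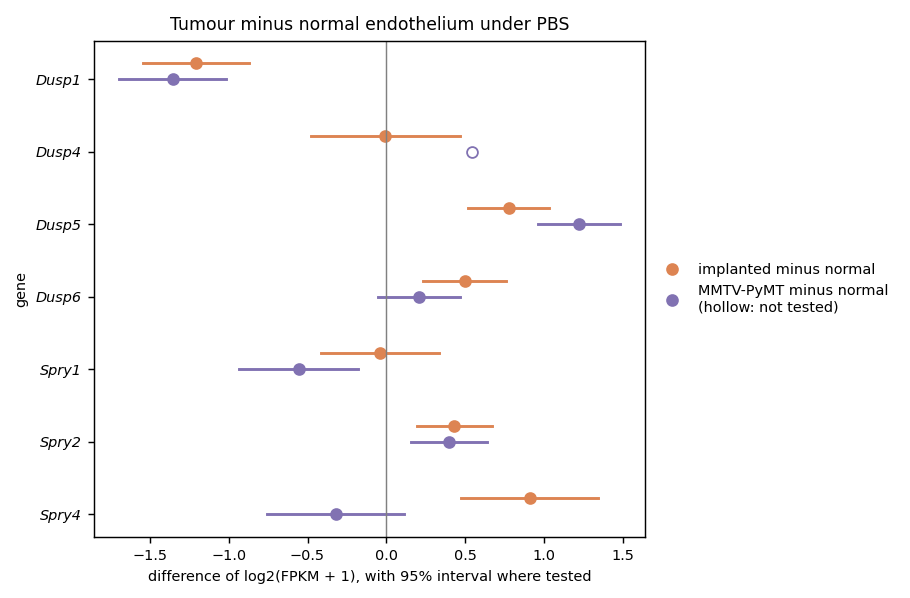
Difference between tumour and normal ECs under PBS on the log2(FPKM + 1) scale (horizontal axis) for each gene (vertical axis), orange for implanted and purple for MMTV-PyMT ECs, with 95% intervals from limma and a hollow point where no test was made. Dusp1 lies left of 0 for both tumours (-1.21 and -1.35), Dusp5 right of 0 for both (0.77 and 1.22), and Spry4 at 0.91 and -0.32.

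Set against each other, implanted PBS ECs had more Spry4 and Spry1 and less Dusp5 than MMTV-PyMT PBS ECs. Spry4 was higher by 1.23 ± 0.20 (adjusted p = 0.00018) and by 2.44-fold in mean FPKM, without overlap, and it passed under every alternative tried. Spry1 was higher by 0.51 ± 0.18 (adjusted p = 0.026), and this call was lost without MMTV-PyMT PBS 2 (0.38, adjusted p = 0.12), MMTV-PyMT PBS 3 (0.50, adjusted p = 0.065), implanted PBS 2 (0.46, adjusted p = 0.088) or implanted PBS 3 (0.51, adjusted p = 0.062), and under total-read scaling (0.36, adjusted p = 0.086). Dusp5 was lower by 0.45 ± 0.12 (-0.45, adjusted p = 0.0074). Dusp6 did not pass (0.29, 95% interval 0.03 to 0.55), but passed without MMTV-PyMT PBS 1 (0.44, adjusted p = 0.005). Differences of 0.15 for Dusp1 (95% interval -0.19 to 0.49) and 0.03 for Spry2 (-0.20 to 0.27) did not pass. Thus 2 of 6 tested members passed as higher and 1 as lower, against 20.8% and 24.6% of all tested genes. With total-read scaling, which moved the median gene by -0.12 in this comparison, 1 passed in each direction. Marker lists moved with this comparison too, with 5 of 7 endothelial markers higher and 1 lower (median 0.63), 5 of 6 epithelial markers lower (median -1.04), and 8 of 12 stress and dissociation genes lower and 1 higher (median -0.67). Their part in it was not tested.

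Per length, Dusp1 and Dusp6 were the most abundant of the 7 transcripts. Their group means ranged from 70.6 to 223 FPKM for Dusp1 and from 62.5 to 135 FPKM for Dusp6, and those of the other 5 genes from 7.77 to 50.7 FPKM. From the highest to the lowest group mean the span was 3.72-fold for Dusp5, 3.25-fold for Spry4, 3.16-fold for Dusp1, 2.52-fold for Dusp4, 2.16-fold for Dusp6, 1.83-fold for Spry1 and 1.42-fold for Spry2. The order of groups differed from gene to gene. Dusp1 ran from normal PBS (223 ± 35.5 FPKM) through implanted cGAMP (131 ± 31.1), normal cGAMP (122 ± 9.81), implanted PBS (95.4 ± 2.96) and MMTV-PyMT PBS (86.8 ± 14.95) to MMTV-PyMT cGAMP (70.6 ± 9.51). Implanted cGAMP and normal cGAMP overlapped in that order, as did implanted PBS and MMTV-PyMT PBS. Dusp5 ran from implanted cGAMP (50.7 ± 4.98 FPKM) through MMTV-PyMT PBS (33.1 ± 4.76), MMTV-PyMT cGAMP (32.5 ± 2.45), implanted PBS (24.0 ± 3.44) and normal cGAMP (16.7 ± 0.749) to normal PBS (13.6 ± 1.85), and only the 2 MMTV-PyMT groups overlapped. Spry4 had its 3 highest means in implanted cGAMP (42.6 ± 15.7 FPKM), implanted PBS (32.0 ± 4.51) and normal cGAMP ECs (30.4 ± 6.26), which overlapped each other in that order. These orders are those of the deposited FPKM and are descriptions with no test.

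Across the 18 libraries the pairs with the closest levels were Dusp5 and Dusp6 (Pearson r = 0.84), Dusp6 and Spry2 (r = 0.76) and Dusp5 and Spry2 (r = 0.72). For Dusp1 r was -0.56 with Spry2 and -0.47 with Dusp5 over all libraries, but 0.24 and 0.65 for the deviations from the group means, and the highest r of Dusp4 with another member was 0.14. The libraries share group means and scaling, so these values describe the 18 libraries only. Among 6903 tested genes with a mean of at least 5 FPKM, the patterns most like each member over the 18 libraries were the following. Dusp1 was closest to Gja4 (r = 0.94), the arterial connexin 37 gene, Ctso (0.93) and Elmo2 (0.93). For Dusp5 they were Itgav (0.96), an integrin subunit gene, Pgd (0.95) and Furin (0.95), and for Dusp6 Ppic, Bmp2k and Fam167b (each 0.94). Spry1 was closest to Rnf144a (0.91), Cep68 (0.88) and 2510009E07Rik (0.88). For Spry2 they were Tbc1d20 (0.91), Ptpn23 (0.91) and Hist1h2bk (0.90), and for Spry4 Abcc9 (0.94), Plcb1 (0.93) and Ercc1 (0.93). No gene followed Dusp4 as closely, with 0.75 for Chmp1b and 0.69 for Abca2 and Cnpy3.

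Relatives of the 7 genes were read from whole lists made by function, with earlier results of these data known. For comparison, 13.7% of all tested genes passed as higher and 18.2% as lower after cGAMP in normal ECs. In implanted ECs the shares were 20.3% and 18.8%, and they belong beside the counts of this and the following lists on the deposited scale. No such shares are given for total-read scaling, which moved the median effect over all genes by -0.23 in implanted ECs. List counts under that scaling therefore stand without a share. Of 6 other MAP kinase phosphatase genes, Dusp9 was below the filter and 5 were tested. In normal ECs 1 rose after cGAMP (Dusp16, 0.29, a phosphatase of JNK and p38). In implanted ECs Dusp2 (1.27), an inducible nuclear phosphatase, and Dusp10 (0.67), which acts on JNK and p38, rose, and Dusp7 (-0.81), a cytoplasmic ERK phosphatase related to Dusp6, fell. Dusp2 averaged 27.8 ± 4.45 FPKM after PBS and 71.2 ± 27.97 FPKM after cGAMP in implanted ECs, and Dusp7 35.8 ± 4.35 and 19.9 ± 1.87 FPKM. Dusp6 and Dusp7 thus went in opposite directions there on the deposited scale. Under total-read scaling Dusp7 was at -1.11, and the rise of Dusp6 did not pass (0.14, adjusted p = 0.34 from limma). The median of the list was -0.10 in normal and 0.15 in implanted ECs, and with total-read scaling the latter was -0.14, with 2 genes higher and 2 lower. Of 4 other Sprouty and Spred genes, 3 were in the table. Spred1, which brings the RAS inhibitor NF1 to the membrane, rose in normal (0.44) and implanted ECs (0.55), and Spred3 rose in normal ECs (0.48), with list medians of 0.44 and 0.19. Spred3 was near the floor in normal ECs, at 0.354 ± 0.102 FPKM after PBS and 0.916 ± 0.386 FPKM after cGAMP. Total-read scaling gave a median of -0.05 in implanted ECs, with 1 higher and 1 lower.

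Of 7 other inhibitors of receptor and ERK signalling, Il17rd, the membrane inhibitor SEF, fell in normal (-0.70) and implanted ECs (-0.70). Ptpn1, a tyrosine phosphatase gene, rose in both (0.75 and 0.40). Lztr1, whose product promotes removal of RAS proteins, fell in normal ECs (-0.76). In implanted ECs Errfi1 (0.63), an inhibitor of the EGF receptor family, rose and Cbl (-0.24), a ubiquitin ligase gene for receptors, fell. The counts were 1 higher and 2 lower in normal ECs (median -0.08) and 2 higher and 2 lower in implanted ECs (median -0.10). Of all tested genes 13.7% and 18.2% passed in normal ECs and 20.3% and 18.8% in implanted ECs. Scaled to total reads, 5 of the 7 passed as lower in implanted ECs, and the rises of Errfi1 (0.32) and Ptpn1 (0.10) no longer passed.

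**Figure D4:**
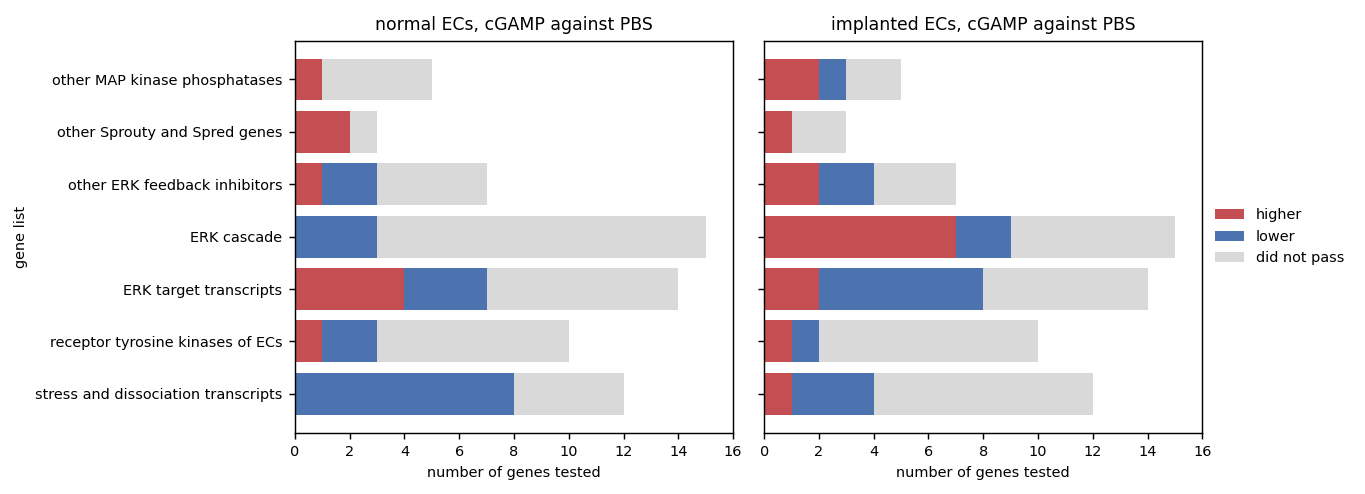
Number of tested genes (horizontal axis) in each of 7 lists (vertical axis) that passed as higher (red) or lower (blue) or did not pass (grey) after cGAMP in normal (left) and implanted ECs (right). Stress and dissociation transcripts had 8 of 12 genes lower in normal ECs, and ERK cascade genes had 7 higher and 2 lower of 15 in implanted ECs, a split that became 2 higher and 7 lower under total-read scaling. That scaling moved the median effect over all genes by -0.23 in implanted ECs.

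In the ERK cascade itself, 3 of 15 genes fell in normal ECs, led by Mapk3 (-0.53), the gene of ERK1, and Ksr1 (-0.35), a scaffold of RAF and MEK. In implanted ECs 7 rose and 2 fell. Map2k1, the gene of MEK1, rose most (1.37), from 22.3 ± 1.74 to 59.3 ± 3.99 FPKM, followed by the RAS exchange factor gene Sos1 (0.58), and Ksr1 (-0.51) and Hras (-0.46) fell. These 4 also passed in the same direction under total-read scaling (1.06 for Map2k1, 0.29 for Sos1, -0.72 for Ksr1 and -0.74 for Hras), whereas the split of the list turned to 2 higher and 7 lower. In MMTV-PyMT ECs Map2k1 was the 1 gene of 15 in this list that passed (0.71, adjusted p = 0.0021 from limma). Of all tested genes 7.42% passed as higher and 4.57% as lower there. The higher and lower counts of the other lists there were 0 and 1 of 5 phosphatase genes, 1 and 0 of 3 Spred genes, and 1 and 0 of 7 inhibitors. They were 2 and 2 of 14 ERK targets, 2 and 0 of 10 receptor genes, and 1 and 4 of 12 stress and dissociation genes. The medians of the ERK cascade list were -0.03 in normal and 0.07 in implanted ECs.

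Transcripts known as targets of ERK did not move in 1 direction either. In normal ECs 4 of 14 rose, led by Fosl1 (1.55) and Myc (0.88), which encode transcription factors, and 3 fell, led by the ephrin receptor gene Epha4 (-1.005) and by Fos (-0.73). In implanted ECs Fosl1 (1.32) and Myc (0.57) rose and 6 fell, led by Etv5 (-1.003), an ETS factor gene that is a classic companion of Spry4 and Dusp6 in FGF signalling, and by Epha4 (-0.58). Etv5 fell from 19.7 ± 2.95 to 9.47 ± 2.5 FPKM in the tissue in which Dusp6 rose, a rise that did not pass under total-read scaling. The list medians were -0.18 and -0.27, and total-read scaling gave 2 higher and 9 lower in implanted ECs. Fos, Egr1 and Ier2 belong to this list and to the stress list. Among 10 receptor genes, Fgfr1 rose in normal (0.36) and implanted ECs (0.79). Tek (-0.81) and Fgfr2 (-0.54) fell in normal ECs and Kdr (-0.52), the gene of VEGF receptor 2, fell in implanted ECs. Tek and Kdr are also among the endothelial markers. The medians were -0.05 and -0.14, and total-read scaling gave 1 higher and 4 lower in implanted ECs in place of 1 and 1.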

How the data were processed

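RNA of sorted ECs was sequenced in 18 libraries (6 groups of 3). Per the labels and the methods of the study, reads were checked with FastQC, aligned to mm10 with STAR 2.7 and counted with HTSeq. The authors deposited 1 table of FPKM values for 16248 genes. How FPKM were made from counts was not stated, and whether counting used the strand of the directional kit was not given in the sources used here. Columns of normal ECs carry only treatment and number, and were taken as normal because no other tissue was left.

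Within each gene the values were whole multiples of 1 read (within 0.02 reads) for 16248 genes (100%), which gave 9184658 to 12200551 reads per library. The denominators differed from these totals. Reads carry no molecular identifiers, so counts cover counting error only. All 18 pairs of replicates differed by more than sampling noise (chi-square per gene of 4.1 to 31.6). It was 17.4 to 31.6 between implanted cGAMP libraries and 4.1 to 5.8 between normal PBS libraries. The p-values of limma rest on 1 spread per gene shared by all 6 groups, not on that of the compared groups alone.

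Genes with at least 1 FPKM in at least 3 libraries were tested (13983, with 2265 below). A linear model of log2(FPKM + 1) with 1 mean per group over all 18 libraries was fitted with limma 3.58.1 (trend, 2-sided) in R 4.3.3, with Benjamini-Hochberg adjustment over all tested genes and 0.05 as threshold, and 95% intervals without adjustment. The pseudocount understates changes of low genes. Named were all 7 members, from each list the 2 largest rises and 2 largest falls that passed in normal or implanted ECs, and the 3 genes most like each member. Lists are described by counts and medians and were not tested as sets. Alternatives were a pseudocount of 0.1, no filter, total-read scaling, voom on recovered reads, only the groups compared, a replicate block, a minimum 2-fold change and 18 fits that leave out 1 library. The members and lists were chosen with earlier results of these data known. Loci are from GENCODE M21 (mm10, counted from 1).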

Additional observations from a re-analysis of the deposited data

Results flagged for a closer look

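The effect of cGAMP differed between implanted and normal ECs in a test of the difference itself for 3 members, Dusp1 (1.28 ± 0.22), Dusp5 (0.77 ± 0.17) and Dusp6 (0.61 ± 0.17), with adjusted p of 0.00095, 0.0054 and 0.022 from limma. Under total-read scaling the Dusp1 difference still passed, and those of Dusp5 (0.46) and Dusp6 (0.30) did not.

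For Dusp1 the libraries of the 2 tumours were ordered in opposite ways in the deposited FPKM, which is given as a description. All MMTV-PyMT cGAMP libraries (59.6 to 76.3 FPKM) lay below the MMTV-PyMT PBS libraries (76.7 to 104 FPKM) by a narrow gap, and all implanted cGAMP libraries (107 to 166 FPKM) lay above the implanted PBS libraries (92.3 to 98.2 FPKM). The implanted order did not hold per recovered read. Implanted cGAMP 3 had 3582 of 12200551 reads and implanted PBS 1 had 2856 of 9435311. The effects (-0.29 and 0.43) stood 0.72 apart on the log2 scale. The rise in implanted ECs was 0.25 without implanted cGAMP 1 (adjusted p = 0.22 from limma) and 0.12 under total-read scaling (adjusted p = 0.50). This difference was not tested, because the MMTV-PyMT contrast served the choice of the genes.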

How the results depend on the processing

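With a minimum change of 2-fold added, fewer members passed: 0 in place of 3 for cGAMP in normal ECs (by limma, 3 at an adjusted p under 0.05 without the fold), 1 in place of 4 in implanted ECs, 1 in place of 3 for the difference between them, 1 in place of 5 for implanted against normal ECs under PBS, 1 in place of 3 for implanted against MMTV-PyMT ECs and 2 in place of 4 for MMTV-PyMT against normal ECs. This follows from the construction of that rule. In the other alternatives each of these counts stayed within 1.5 times its value, but the counts ignore direction and which members passed. Under total-read scaling the difference between implanted and normal ECs went from 3 higher and 0 lower to 1 higher and 1 lower. Leaving out 1 library at a time, the counts ranged from 2 to 3, 3 to 4, 2 to 4, 5 to 5, 2 to 4 and 3 to 4 in the same order. No called result changed direction. A pseudocount of 0.1, no filter and voom on recovered reads changed no call of a member.

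Total-read scaling ended or made 8 calls of single members, which are named with their values beside the results. The rise of Dusp1 in implanted ECs was the least stable, with adjusted p from 0.015 to 0.50 over the alternatives, 0.09 with only the groups compared, and 5 of the 18 fits without 1 library above the threshold, namely those without normal PBS 1 (0.051), implanted PBS 1 (0.10), implanted PBS 2 (0.069), implanted PBS 3 (0.084) and implanted cGAMP 1 (0.22).

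With a replicate block the same counts of members passed in 5 of the 6 comparisons, and 3 in place of 4 passed in implanted ECs, where Dusp1 had an adjusted p of 0.054. Libraries with the same number did not deviate together (r from -0.29 to 0.26 over 9 pairs, and 4 of 18 libraries correlated best with their own number), so the numbers were not taken as pairs.

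With 3 libraries per group, differences below about the intervals given were not resolved, and Dusp4 had the fewest reads of the 7 genes.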
